A study of Homo sapiens with 24 samples.

Results

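Aminoacyl-tRNA synthetases are the enzymes that join each amino acid to its transfer RNA. The 36 genes described here were taken by name: 20 encode the cytosolic enzymes and 16, with symbols ending in 2, the mitochondrial ones. They were read under the older symbols of the deposited table, which lists 22446 genes, so that AARS stands for the gene now called AARS1. All 36 were in the table, and all 36 had at least 1 RPKM in each of the 12 libraries. Levels are RPKM, read counts scaled to the length of the transcript and to the reads of the library (M below stands for 1000000), so that different genes can be set side by side.

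The cells were A2780, an established human epithelial ovarian cancer line grown in RPMI medium with fetal bovine serum and 5% CO2. Cultures in a hypoxia chamber at 1% oxygen were compared with normoxic control cultures at 6 hr, 48 hr and 6 days, with 2 libraries in each of the 6 groups. Hypoxia libraries are numbered 3 and 4 (6 hr), 7 and 8 (48 hr), and 11 and 12 (6 days), and normoxia libraries 1 and 2, 5 and 6, and 9 and 10 at the same times. Total RNA was depleted of ribosomal RNA and sequenced. In bulk RNA of this kind, fewer cells with a transcript and less of it per cell cannot be told apart.

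Cytosolic synthetases charge transfer RNA for the ribosomes that read nuclear messages, and 8 of them sit together in the multisynthetase complex with scaffold proteins. Mitochondrial synthetases are also encoded in the nucleus, but charge the transfer RNAs used to make the respiratory chain subunits of the mitochondrial genome. GARS and KARS each serve both compartments. Many cytosolic synthetase genes are known targets of ATF4, the transcription factor of the integrated stress response that is made when amino acids are short or the endoplasmic reticulum is stressed. From general knowledge, 12 cytosolic genes were listed as such targets (AARS, CARS, EPRS, GARS, IARS, LARS, MARS, NARS, SARS, TARS, WARS and YARS). The other 8 are DARS, FARSA, FARSB, HARS, KARS, QARS, RARS and VARS. Earlier results of these data were known when this list was made.

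ATF4 binds DNA with a C/EBP partner at a composite element, and the letters TGATGNAA, or TTNCATCA on the opposite strand, were taken as its core. RefSeq promoter windows (assembly GRCh38.p14, 250 bases before to 50 after each annotated start) were at hand for 30 of the 36 genes. DARS, LARS, VARS, YARS, AARS2 and VARS2 had none. The core was found in 7 of 10 ATF4-listed genes, in 0 of 6 other cytosolic genes and in 1 of 14 mitochondrial genes. Of all 35116 windows 1270 (3.62%) held it, and of 27305 gene symbols 4.46%. The 8 stretches are shown because they set the core of each gene beside its values below. Each is printed 5′ to 3′ on the strand of its gene with the core in capitals, and positions count from 0 at the annotated start. A match describes the letters and is neither a site nor a cause.
AARS, chr16:70289675-70289704, minus strand, core from base -187: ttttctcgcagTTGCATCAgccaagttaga
CARS, chr11:3057407-3057436, minus strand, core from base -2: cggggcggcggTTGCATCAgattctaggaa
GARS, chr7:30594834-30594863, plus strand, core from base -33: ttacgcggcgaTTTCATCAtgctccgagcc
IARS, chr9:92293692-92293721, minus strand, core from base -13: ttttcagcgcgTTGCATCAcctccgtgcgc
MARS, chr12:57488053-57488082, plus strand, core from base -4: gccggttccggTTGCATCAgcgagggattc
NARS, chr18:57621804-57621833, minus strand, core from base 14: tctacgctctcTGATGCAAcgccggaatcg
TARS, chr5:33440956-33440985, plus strand, core from base 2: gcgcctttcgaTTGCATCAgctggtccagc
YARS2, chr12:32756076-32756105, minus strand, core from base -197: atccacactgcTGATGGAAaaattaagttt

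The core letters were the same, read on either strand, in 6 of the 7 ATF4-listed genes (AARS, CARS, IARS, MARS, NARS and TARS), with GARS the exception. The windows of EPRS, SARS and WARS, also ATF4-listed, did not hold the core. The E-box CACGTG, the same on both strands, was in 4 of the 30 genes (IARS, CARS2, EARS2 and MARS2), in IARS apart from the core, and in 7.26% of all windows and 8.77% of gene symbols.

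Read totals were inferred from the values of short precursor RNAs, which are separate sample entries with the same library numbers. These totals ran from 25.1 M reads in library 12 to 51.7 M in library 1. Whether they also hold for the total RNA values was not tested. Libraries 1 and 2 (normoxia, 6 hr) stood furthest apart, with a median absolute log2 difference over all tested genes of 0.20, against 0.089 to 0.13 in the other pairs. Library 4 (hypoxia, 6 hr) stood apart in blood and immune markers, whose sum was 22.0 RPKM there, nearly all of it HBB, and 0.560 to 1.32 RPKM in the other 11. Its collagen mRNAs stood apart too, with COL1A2 at 3.06 RPKM there and at most 0.125 RPKM elsewhere, and COL1A1 at 2.5 RPKM there and at most 0.785 RPKM elsewhere. Of 8 epithelial ovarian markers 2 or 3 reached 1 RPKM in each library, EPCAM and KRT18 among them, while CDH1, PAX8 and MUC16 reached at most 0.0626 RPKM in any library. Endothelial markers summed to 0.306 RPKM in library 4 and to at most 0.0866 RPKM in the others. Fibroblast markers, mainly DCN and LUM, summed to 37.0 and 33.5 RPKM in hypoxia and 21.5 and 22.3 RPKM in normoxia at 48 hr, and to 42.7 and 39.7 RPKM in hypoxia and 28.8 and 29.5 RPKM in normoxia at 6 days. At 6 hr they were 28.1 and 31.8 RPKM in hypoxia and 28.5 and 23.5 RPKM in normoxia. The part of these markers in the results below was not tested. Of 6 index genes of hypoxia (CA9, BNIP3, PDK1, SLC2A1, VEGFA and ADM), 5 rose in hypoxia at 6 hr and 6 at 48 hr and at 6 days.

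Cytosolic synthetase mRNAs were the more abundant class. Mean levels over the 12 libraries ran from 12.1 to 69.9 RPKM among the cytosolic genes (median 32.8) and from 2.66 to 23.7 RPKM among the mitochondrial genes (median 6.24). NARS, which charges asparagine, had the highest mean. Its level was 82.9 and 76.5 RPKM in hypoxia and 82.6 and 83.5 RPKM in normoxia at 6 days, and 62.6 and 58.3 RPKM in hypoxia and 65.9 and 52.6 RPKM in normoxia at 6 hr. AARS, for alanine, came next at 68.6 RPKM, and the ranges of both genes over the 12 libraries overlapped.

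QARS, for glutamine, had the lowest cytosolic mean, with 9.25 and 9.92 RPKM in hypoxia and 15.4 and 16.4 RPKM in normoxia at 6 days. Among mitochondrial genes IARS2, for isoleucine, was highest, with 24.3 and 28.5 RPKM in hypoxia and 29.3 and 24.4 RPKM in normoxia at 6 days. PARS2, for proline, was lowest, with 3.52 and 2.97 RPKM in hypoxia and 2.42 and 2.90 RPKM in normoxia at 6 days. For IARS2 these libraries overlapped between the conditions, and for QARS and PARS2 they did not. The PARS2 libraries came close, however, at 2.97 RPKM in hypoxia and 2.90 RPKM in normoxia. PARS2 did not pass the test described below (limma adjusted p = 0.119).

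**Figure D1:**
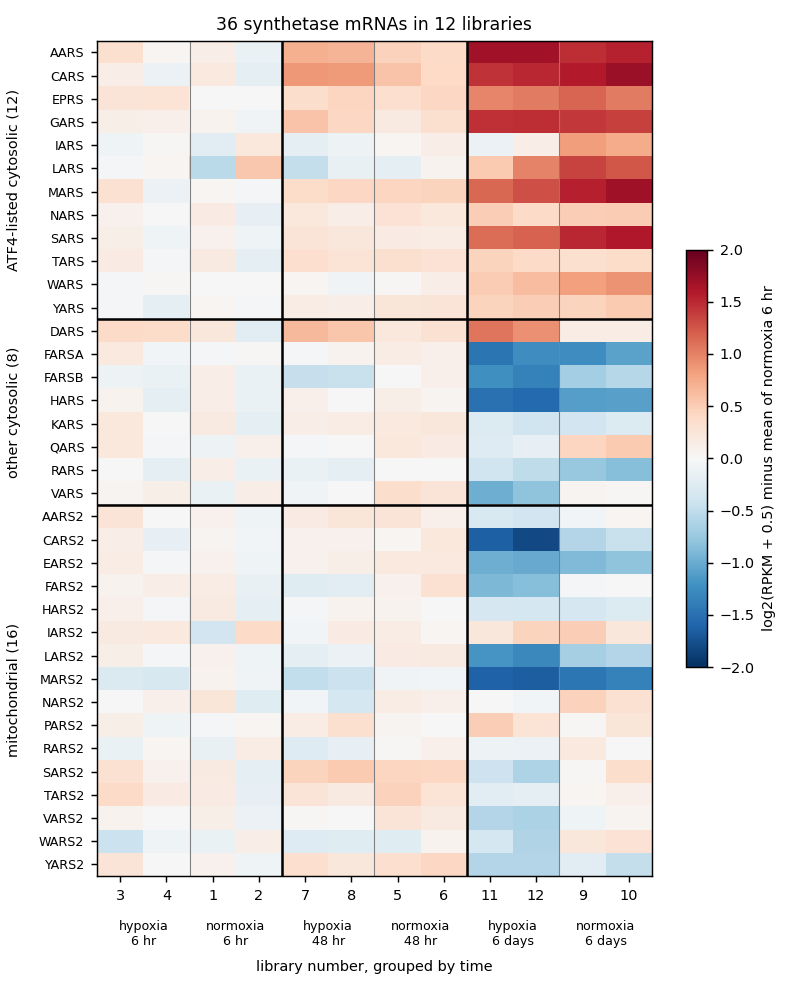
Levels of the 36 mRNAs (rows) in the 12 libraries (columns, by number and group), as log2(RPKM + 0.5) minus the mean of normoxia at 6 hr, red for higher and blue for lower. The 4 libraries of 6 days on the right carry most of the colour, and ATF4-listed cytosolic genes (top block) are mostly red there while most other rows are blue.

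Hypoxia was compared with normoxia by limma on log2(RPKM + 0.5), with Benjamini-Hochberg adjustment over 11933 tested genes and a threshold of 0.05 on the adjusted p. Fold changes are given on that scale as log2 ± SE, hypoxia over normoxia. This scale understates the change of genes with little RNA. Nothing in the labels tells if both libraries of a group were grown separately, and p-values then cover only the spread from library to library, which may be technical.

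After 6 hr, 0 of 36 synthetases passed the threshold in limma, against 3.59% of all genes tested (3.39% higher and 0.201% lower). An unadjusted p below 0.05 was reached by 4 of 36 synthetases and by 2008 of all 11933 genes. The median log2 fold change was 0.053 for cytosolic and 0.047 for mitochondrial genes and 0.039 over all genes. Both medians of the synthetases turned just below 0 when libraries were centred on a trimmed mean, and that of the mitochondrial genes after quantile normalization. MARS2, the mitochondrial methionine enzyme, came nearest to the threshold, with 8.31 and 8.09 RPKM in hypoxia and 10.7 and 9.76 RPKM in normoxia (log2 -0.30 ± 0.083, limma adjusted p = 0.0775). Either of those rescalings put MARS2 past the threshold, and leaving out library 1 put DARS past it as higher.

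After 48 hr, 4 synthetases were lower in hypoxia and 0 higher, 3 of the 4 being mitochondrial. Over all genes 2.89% were lower and 9.24% higher (12.1% called). Quantile normalization gave 4 lower and 2 higher synthetases, with the share of all genes under it not given here. The median log2 fold change was -0.12 for mitochondrial genes, -0.07 for cytosolic genes and 0.011 over all genes. FARSB, the beta subunit of the cytosolic phenylalanine enzyme, had 19.1 and 19.2 RPKM in hypoxia and 26.2 and 28.3 RPKM in normoxia. Both hypoxia libraries lay below both normoxia libraries, and FARSB fell by 0.50 ± 0.10 (limma adjusted p = 0.00967). FARSA, which encodes the alpha subunit of the same enzyme, had a log2 fold change of -0.10 ± 0.11 and did not pass.

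FARS2, the mitochondrial phenylalanine enzyme, had 3.97 and 4.10 RPKM in hypoxia and 5.12 and 6.07 RPKM in normoxia at 48 hr (log2 -0.42 ± 0.11, limma adjusted p = 0.0294). MARS2 had 7.17 and 7.49 RPKM in hypoxia and 9.74 and 9.87 RPKM in normoxia (log2 -0.40 ± 0.083, limma adjusted p = 0.00971). LARS2, for leucine, had 9.24 and 9.73 RPKM in hypoxia and 11.97 and 12.01 RPKM in normoxia (log2 -0.32 ± 0.094, limma adjusted p = 0.0466). In all 3 the groups did not overlap, but this also held for synthetases that did not pass at 48 hr, such as CARS and VARS. The share of all genes without overlap is not given here, so with 2 libraries a group lack of overlap only describes the values, here and below. Each of the 4 calls of 48 hr ended on leaving out any of 3 of the 4 libraries of that time, and LARS2 on leaving out any of the 4. The highest adjusted p so reached was 0.0885 for FARSB, 0.102 for MARS2, 0.224 for FARS2 and 0.252 for LARS2.

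After 6 days, 17 synthetases were lower in hypoxia and 2 higher, while over all genes 18.3% were lower and 23.9% higher (42.2% called). Of the 16 mitochondrial genes 9 fell and 0 rose, and of the 20 cytosolic genes 8 fell and 2 rose. Fold changes were negative in 30 of 36. The median log2 fold change was -0.31 for mitochondrial genes, -0.19 for cytosolic genes and 0.036 over all genes.

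**Figure D2:**
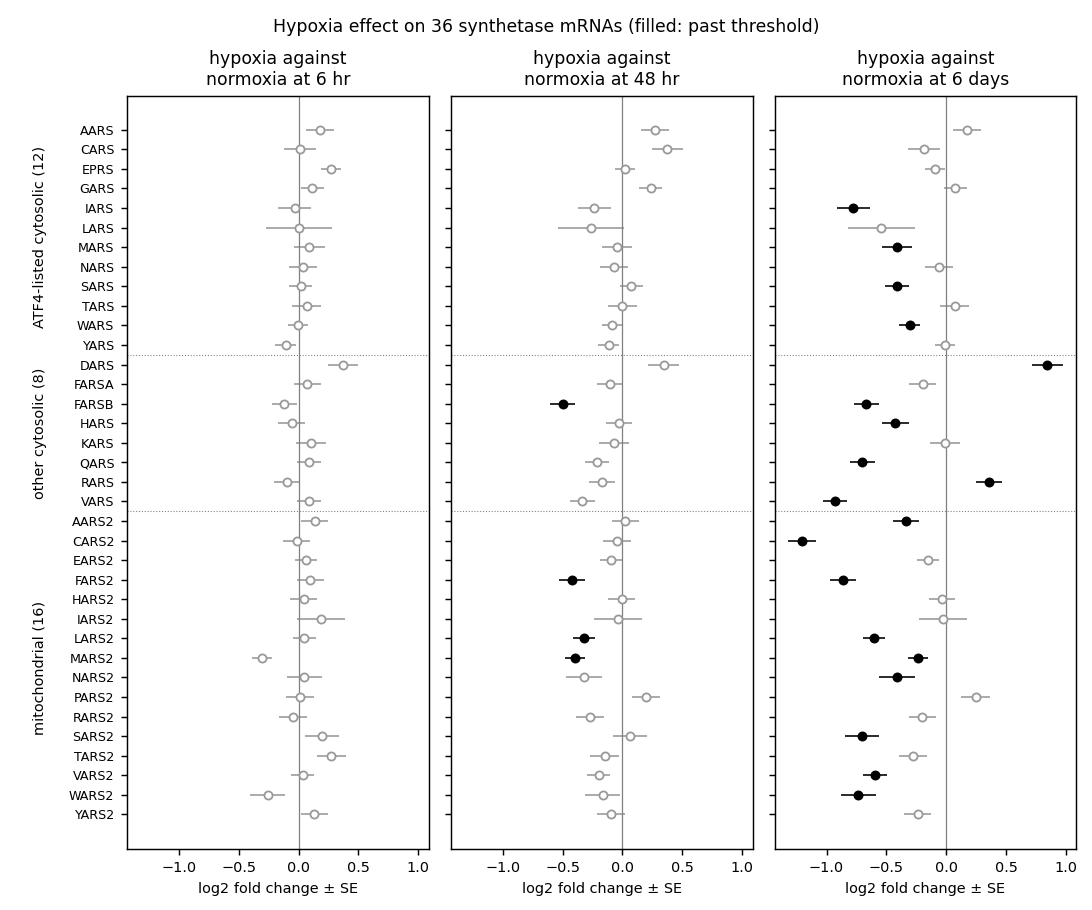
Log2 fold change ± SE of each synthetase mRNA, hypoxia over normoxia, at 6 hr, 48 hr and 6 days (panels), filled where limma's adjusted p was below 0.05. None is filled at 6 hr, 4 at 48 hr and 19 at 6 days, where CARS2 lies lowest (-1.20) and DARS highest (0.85).

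CARS2, the mitochondrial cysteine enzyme, fell most. Its level was 2.79 and 2.42 RPKM in hypoxia and 6.30 and 6.99 RPKM in normoxia at 6 days (log2 -1.20 ± 0.12, limma adjusted p = 1.89e-05), so that the hypoxia libraries lay far below the normoxia libraries. At 48 hr CARS2 had 10.4 and 10.3 RPKM in hypoxia and 10.0 and 11.4 RPKM in normoxia, with overlapping groups. CARS, which charges cysteine in the cytosol, had 31.0 and 32.2 RPKM in hypoxia and 34.2 and 37.8 RPKM in normoxia at 6 days and did not pass (limma adjusted p = 0.287).

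VARS, the cytosolic valine enzyme, had 7.33 and 8.41 RPKM in hypoxia and 15.6 and 15.2 RPKM in normoxia at 6 days (log2 -0.93 ± 0.10, limma adjusted p = 4.84e-05). FARS2 had 2.36 and 2.44 RPKM in hypoxia and 4.72 and 4.81 RPKM in normoxia (log2 -0.86 ± 0.11, limma adjusted p = 0.000139). IARS, the cytosolic isoleucine enzyme, had 44.4 and 53.0 RPKM in hypoxia and 86.1 and 80.8 RPKM in normoxia (log2 -0.78 ± 0.14, limma adjusted p = 0.00113). In each of the 3 the hypoxia libraries lay clearly below the normoxia libraries, by more than the gap within either pair.

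WARS2, for tryptophan, had 2.56 and 2.07 RPKM in hypoxia and 4.08 and 4.25 RPKM in normoxia at 6 days (log2 -0.73 ± 0.15, limma adjusted p = 0.00245). SARS2, for serine, had 3.12 and 2.64 RPKM in hypoxia and 4.39 and 5.66 RPKM in normoxia (log2 -0.70 ± 0.14, limma adjusted p = 0.0026). Neither overlapped, although the normoxia libraries of SARS2 differed by more than those of WARS2. The other 11 that fell were QARS, FARSB, LARS2, VARS2, HARS, SARS, NARS2, MARS, AARS2, WARS and MARS2, with log2 fold changes of -0.70 for QARS to -0.24 for MARS2.

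DARS and RARS, for aspartate and arginine, were the 2 that rose. Both are members of the multisynthetase complex, in which 2 of 8 were thus higher, near the share over all genes (23.9%). DARS had 51.6 and 46.0 RPKM in hypoxia and 26.9 and 26.8 RPKM in normoxia at 6 days (log2 0.85 ± 0.13, limma adjusted p = 0.000414). Its hypoxia libraries were also above normoxia at 48 hr, with 38.2 and 35.9 RPKM in hypoxia and 28.2 and 30.0 RPKM in normoxia, but without passing (limma adjusted p = 0.107). RARS had 33.1 and 30.7 RPKM in hypoxia and 25.7 and 24.0 RPKM in normoxia at 6 days (log2 0.36 ± 0.11, limma adjusted p = 0.0213). Both hypoxia libraries of RARS were above both normoxia libraries.

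Within the complex of 8, DARS and RARS thus rose, IARS, MARS and QARS fell, and EPRS, KARS and LARS did not pass. Over all genes 23.9% were higher and 18.3% lower at 6 days. LARS had 17.5 and 24.4 RPKM in hypoxia and 31.6 and 29.2 RPKM in normoxia at 6 days, with no overlap, but in libraries 1 and 2 it was at 8.12 and 17.9 RPKM, the widest gap of any synthetase within a group on the log2 scale (1.09). Its log2 fold change of -0.54 ± 0.28 did not pass (limma adjusted p = 0.139). The complex scaffold genes AIMP1, AIMP2 and EEF1E1 belong to a list of 23 partners of the synthetases, 22 of them tested, of which 2 fell at 48 hr (2.89% of all genes were lower) and 11 at 6 days (18.3% lower), and 0 rose at either time (9.24% and 23.9% higher). Of the 3 scaffold genes AIMP2 fell at 6 days, with 19.3 and 17.3 RPKM in hypoxia and 22.7 and 22.6 RPKM in normoxia. AIMP1 had 13.0 and 14.1 RPKM in hypoxia and 11.98 and 10.4 RPKM in normoxia, above normoxia in both libraries but not past the threshold (limma adjusted p = 0.0512). EEF1E1 had 18.2 and 13.6 RPKM in hypoxia and 22.8 and 20.3 RPKM in normoxia and did not pass either (limma adjusted p = 0.075). Among those that fell at 6 days were QRSL1, a subunit of the amidotransferase that makes glutaminyl-tRNA in mitochondria (log2 -0.69), and KIAA0391, the nuclease subunit of mitochondrial RNase P (-0.56).

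Of the 19 calls at 6 days, 11 held with each of the 4 libraries left out in turn and under every other alternative (DARS, FARSB, IARS, QARS, VARS, CARS2, FARS2, LARS2, SARS2, VARS2 and WARS2). The other 8 (HARS, MARS, RARS, SARS, WARS, AARS2, MARS2 and NARS2) ended without 1 or more of the libraries, with adjusted p up to 0.207. SARS ended only without library 10 and reached 0.0539, and AARS2, MARS2 and NARS2 ended without any of the 4. Without library 10 the count was 11, of which 1 was higher and 10 lower.

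**Figure D3:**
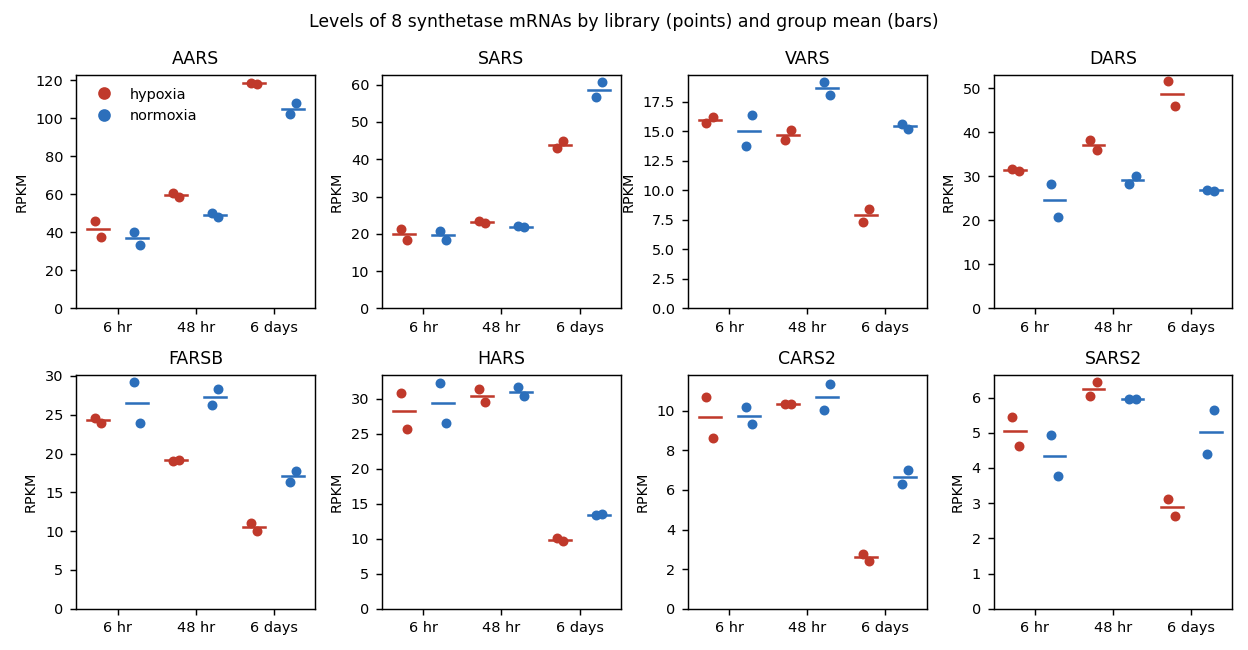
RPKM of 8 synthetase mRNAs in each library (points, hypoxia red and left, normoxia blue and right) with group means (bars), at 6 hr, 48 hr and 6 days. AARS and SARS are highest at 6 days in both conditions, CARS2, VARS and SARS2 are lowest in hypoxia at 6 days, and DARS is highest there.

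The difference between hypoxia effects at 2 times was tested in the same model. From 6 hr to 48 hr, 0 of 36 passed in limma (0.528% of all genes did, 0.511% higher and 0.0168% lower). An unadjusted p below 0.05 was reached by 5 of 36 synthetases and by 1287 of 11933 genes. For the effect at 6 days minus that at 48 hr, 4 were lower and 0 higher, and over all genes 5.31% were lower and 5.38% higher (10.7% called). They were CARS2 (log2 difference -1.16 ± 0.16, limma adjusted p = 0.00311), SARS2 (-0.76 ± 0.20, limma adjusted p = 0.0366), VARS (-0.59 ± 0.14, limma adjusted p = 0.0276) and SARS, the cytosolic serine enzyme (-0.49 ± 0.14, limma adjusted p = 0.0469). SARS2 had 6.03 and 6.45 RPKM in hypoxia and 5.96 and 5.95 RPKM in normoxia at 48 hr, and VARS 14.2 and 15.1 RPKM in hypoxia and 19.2 and 18.1 RPKM in normoxia. SARS2 thus lay above normoxia at 48 hr in both libraries, and VARS below. Of these 4 only CARS2 passed under all of the alternatives, since SARS, VARS and SARS2 each ended on leaving out any of 7 or 8 of the 8 libraries involved, with adjusted p up to 0.151. Without any 1 library the count was 1 or 2. The split was 12 lower and 1 higher after quantile normalization, and 7 lower and 2 higher with trimmed-mean centring. For 6 days minus 6 hr, 11 were lower and 0 higher (15 and 2 after quantile normalization, 14 and 2 with trimmed-mean centring), and over all genes 10.2% were lower and 11.2% higher (21.4% called). The shares of all genes after these rescalings are not given here. The rescaled counts thus do not tell a change in the synthetases from one over all genes.

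From 6 hr to 6 days most synthetases changed in each condition, as did most genes tested, and the cytosolic genes went both ways. The cause of these changes with time was not tested. In normoxia at 6 days against normoxia at 6 hr, 14 synthetases were higher and 11 lower, and over all genes 30.9% were higher and 25.9% lower (56.7% called). All 12 ATF4-listed genes rose, with a median log2 fold change of 1.20, against 0.043 over all genes. Because the list was made with earlier results of these data known, the split describes the genes and is no independent test. Of the other 8 cytosolic genes 1 rose and 5 fell, with a median of -0.47. Of the 16 mitochondrial genes 1 rose and 6 fell, with a median of -0.011. Of the 25 calls 20 held under all alternatives, while TARS, KARS, HARS2, NARS2 and YARS2 each ended on leaving out any of 2 or 3 of the 4 libraries, with adjusted p up to 0.396. The KARS call also ended after quantile normalization. The genes named for changes with time were chosen after their values were seen.

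CARS rose most, to 34.2 and 37.8 RPKM in normoxia at 6 days, against 12.7 and 9.58 RPKM in normoxia at 6 hr (log2 1.66 ± 0.13, limma adjusted p = 2.6e-06). MARS, for methionine, had 70.6 and 77.8 RPKM at 6 days and 24.5 and 22.9 RPKM at 6 hr (log2 1.63 ± 0.13, limma adjusted p = 2.2e-06). SARS had 56.6 and 60.6 RPKM at 6 days and 20.8 and 18.4 RPKM at 6 hr (log2 1.56 ± 0.097, limma adjusted p = 5.67e-07). In these 3 genes both libraries of 6 days were above both of 6 hr by more than the spread within either pair. TARS, for threonine, moved least of the 12, with 62.3 and 64.3 RPKM at 6 days and 56.6 and 43.7 RPKM at 6 hr (log2 0.34 ± 0.12, limma adjusted p = 0.0306).

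The MARS span overlaps DDIT3, the gene of the stress factor CHOP, and ARHGAP9 in the RefSeq annotation. DDIT3 averaged 48.6 RPKM in normoxia at 6 days and 3.78 RPKM in normoxia at 6 hr. Whether reads were counted by strand is not given in the sources used here, so reads of MARS and DDIT3 may not be fully apart. By the same annotation YARS overlaps S100PBP, CARS2 overlaps ING1, FARS2 overlaps LYRM4 and EARS2 overlaps GGA2.

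Among the other cytosolic genes FARSA fell most, with 11.1 and 12.6 RPKM in normoxia at 6 days and 26.5 and 27.3 RPKM in normoxia at 6 hr (log2 -1.15 ± 0.11, limma adjusted p = 9.25e-06). HARS, for histidine, had 13.4 and 13.5 RPKM at 6 days and 32.3 and 26.6 RPKM at 6 hr (log2 -1.09 ± 0.11, limma adjusted p = 1.39e-05). In both, the 6 day libraries lay well below those of 6 hr. RARS, FARSB and KARS, for lysine, also fell, by 0.80, 0.62 and 0.33 on the log2 scale, QARS rose by 0.48, and DARS and VARS had log2 fold changes of 0.15 and 0.038.

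Of the mitochondrial genes MARS2 fell most, with 3.45 and 3.71 RPKM in normoxia at 6 days and 10.7 and 9.76 RPKM in normoxia at 6 hr (log2 -1.40 ± 0.083, limma adjusted p = 4.06e-07). EARS2, for glutamate, had 4.99 and 5.33 RPKM at 6 days and 10.2 and 9.10 RPKM at 6 hr (log2 -0.84 ± 0.092, limma adjusted p = 2.24e-05). Neither gene overlapped between the times. LARS2, CARS2, YARS2 and HARS2 fell by 0.63 to 0.31 on the log2 scale, and NARS2, for asparagine, rose by 0.38.

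In hypoxia at 6 days against hypoxia at 6 hr, 13 synthetases were higher and 18 lower, and over all genes 35.1% were higher and 29.8% lower (64.9% called). Of the ATF4-listed genes 11 rose, with a median of 0.75, against 0.057 over all genes. IARS, the exception, had 44.4 and 53.0 RPKM at 6 days and 45.2 and 49.1 RPKM at 6 hr, with overlapping groups (log2 0.042 ± 0.14). Of the other 8 cytosolic genes DARS rose, by 0.62, and 7 fell, with a median of -0.71 over the 8. Of the mitochondrial genes PARS2 rose, by 0.37, and 11 fell, with a median of -0.56. CARS2 fell by 1.71 ± 0.12 (limma adjusted p = 5.63e-07). Of the 31 calls 23 held under all alternatives. LARS, NARS, TARS, KARS, QARS, RARS, HARS2 and PARS2 each ended on leaving out any of 1 to 3 of the 4 libraries, with adjusted p up to 0.208, and LARS also with trimmed-mean centring, QARS and PARS2 also after quantile normalization.

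**Figure D4:**
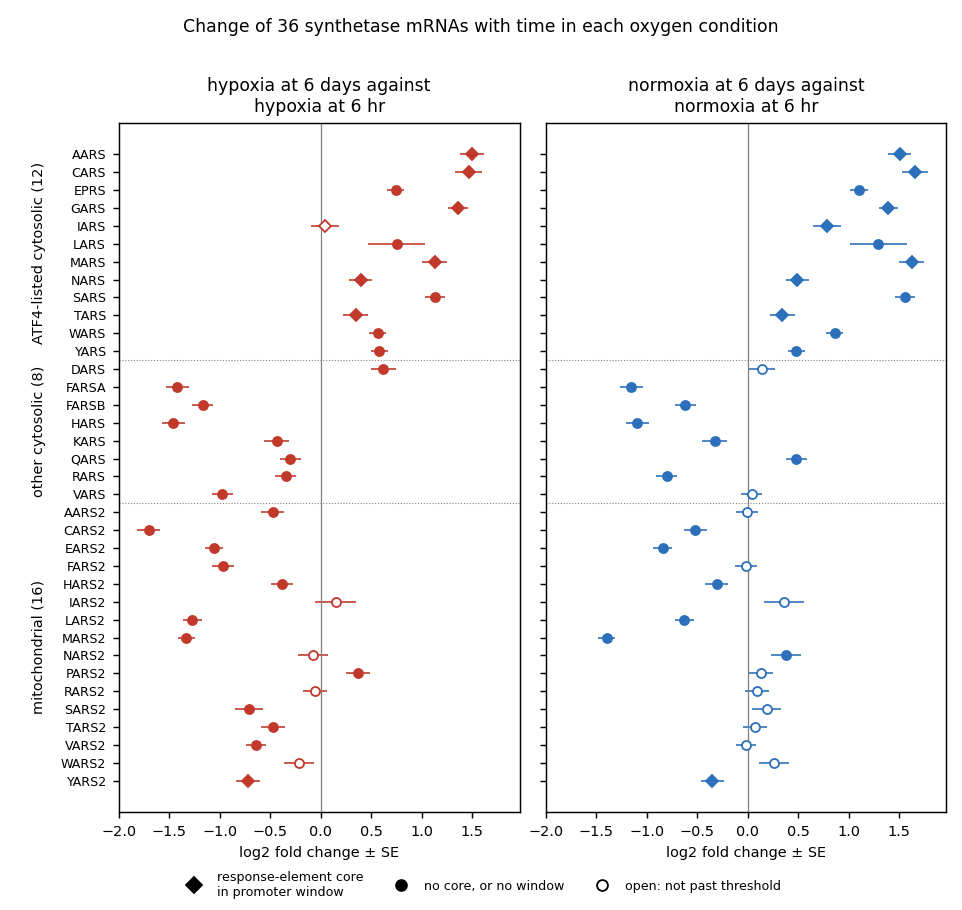
Log2 fold change ± SE from 6 hr to 6 days in hypoxia (left) and normoxia (right), diamonds for genes with the response-element core in a promoter window and open symbols for genes not past the threshold. The 12 ATF4-listed genes (top block) lie right of 0 in both panels, and 7 of the 8 other cytosolic genes lie left of 0 in hypoxia.

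In the 2 comparisons, which share no library, 11 of the 36 were higher in both and 11 lower in both, and over all genes 22.6% and 19.7%. All 7 ATF4-listed genes with the core in a window rose in normoxia, as did EPRS, SARS and WARS without it and LARS and YARS with no window. YARS2, the mitochondrial gene with the core, fell in both conditions, by 0.72 in hypoxia and 0.35 in normoxia, the normoxia call ending without library 1 or 10 (adjusted p up to 0.205).

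From 6 hr to 48 hr few synthetases moved. In hypoxia at 48 hr against hypoxia at 6 hr 3 rose and 0 fell, against 4.94% and 0.905% of all genes (5.84% called). They were CARS (log2 0.85 ± 0.13, limma adjusted p = 0.00556), AARS (0.52 ± 0.12, limma adjusted p = 0.0289) and GARS, for glycine (0.38 ± 0.097, limma adjusted p = 0.0466), all ATF4-listed. CARS had 20.6 and 20.4 RPKM at 48 hr and 12.2 and 10.2 RPKM at 6 hr, without overlap. The count was 0 without library 4 or library 7 and 1 without library 8. After quantile normalization 3 rose and 2 fell, and after trimmed-mean centring 2 rose and 2 fell, with the shares of all genes under these rescalings not given here. In normoxia at 48 hr against normoxia at 6 hr 0 passed in limma (0.0922% of all genes did, 0.00838% higher and 0.0838% lower). An unadjusted p below 0.05 was reached by 12 of the 36 synthetases and by 1957 of 11933 genes.

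ATF4 and its other targets were counted over the same comparisons. This list too was made with earlier results of these data known, so its counts are no independent test. Of 19 such genes (ATF4 and 18 non-synthetase targets) 17 rose and 1 fell in normoxia at 6 days against normoxia at 6 hr. Over all genes 30.9% rose and 25.9% fell. The rises were led by CHAC1, which degrades glutathione (log2 3.87), DDIT3 (3.52), ASNS, which makes asparagine (3.46), and TRIB3, a pseudokinase (2.61). In hypoxia at 6 days against hypoxia at 6 hr 16 rose and 2 fell, against 35.1% and 29.8% of all genes. Against normoxia of the same time, 0 passed in limma at 6 hr (3.59% of all genes did). An unadjusted p below 0.05 was reached by 5 of the 19 and by 2008 of 11933 genes. At 48 hr 7 rose in hypoxia and 0 fell, against 9.24% and 2.89% of all genes. These 7 were led by CHAC1 (1.84), SESN2, a brake on mTORC1 (1.41), DDIT3 (0.82) and PPP1R15A, which resets the stress response (0.68). At that time 0 of the 12 ATF4-listed synthetases passed the threshold, and CARS came nearest, with a log2 fold change of 0.38 ± 0.13 (limma adjusted p = 0.0918). An unadjusted p below 0.05 was reached by 3 of the 12 (CARS, AARS and GARS, all higher in hypoxia), by 10 of the 19 and by 3194 of 11933 genes. Of the 12 fold changes 5 were positive and 7 negative. At 6 days 2 of the 19 rose and 6 fell in hypoxia, against 23.9% and 18.3% of all genes.

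Summed over genes, the 3 classes differed in their course. The 12 ATF4-listed mRNAs together had 398 and 368 RPKM in hypoxia and 379 and 358 RPKM in normoxia at 6 hr, and 452 and 444 RPKM in hypoxia and 440 and 443 RPKM in normoxia at 48 hr. At 6 days they had 672 and 693 RPKM in hypoxia and 750 and 761 RPKM in normoxia. The sum was thus higher at each later time in both conditions, and hypoxia lay below normoxia only at 6 days.

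The 8 other cytosolic mRNAs together had 172 and 162 RPKM in hypoxia and 161 and 166 RPKM in normoxia at 6 days, against 233 and 231 RPKM in hypoxia and 247 and 249 RPKM in normoxia at 48 hr. At 6 days the conditions overlapped in this sum, in which DARS and RARS were higher and FARSB, HARS, QARS and VARS lower in hypoxia.

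The 16 mitochondrial mRNAs together had 93.2 and 94.5 RPKM in hypoxia and 118 and 116 RPKM in normoxia at 6 days, 130 and 134 RPKM in hypoxia and 146 and 145 RPKM in normoxia at 48 hr, and 141 and 131 RPKM in hypoxia and 132 and 129 RPKM in normoxia at 6 hr. Hypoxia lay below normoxia at 48 hr and at 6 days without overlap, and at 6 hr the groups overlapped. Factors that work beside these enzymes were counted too. Of 9 mitochondrial translation factors GFM1 and MTIF2 fell in hypoxia at 48 hr, and TUFM (log2 -0.74), TSFM (-0.49) and GFM1 (-0.37), elongation factors, fell at 6 days, against 2.89% and 18.3% of all genes lower at these times. Of 7 cytosolic elongation factor genes EEF1A2 rose at 48 hr (0.54) and at 6 days (1.05), and EEF1D (-0.62) and the kinase gene EEF2K (-0.49) fell at 6 days. Over all genes 9.24% rose at 48 hr, and 23.9% rose and 18.3% fell at 6 days.

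**Figure D5:**
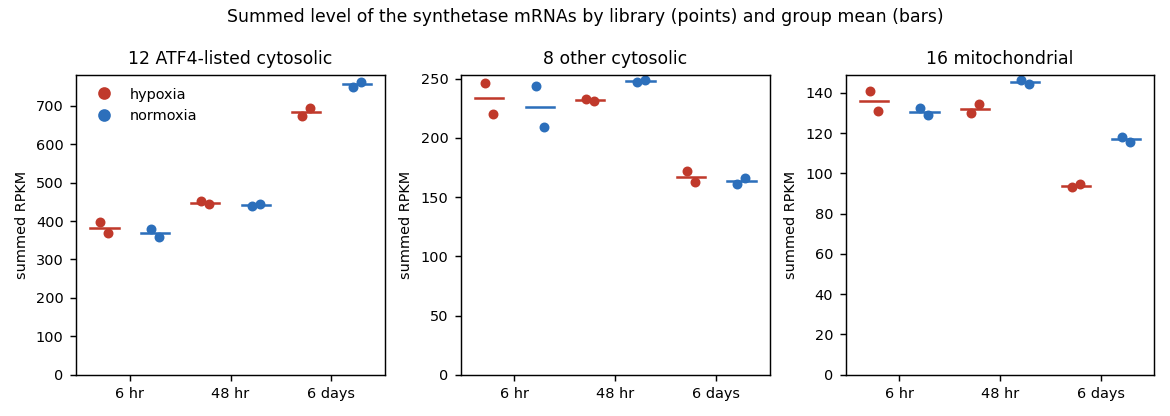
Summed RPKM of the 12 ATF4-listed cytosolic, 8 other cytosolic and 16 mitochondrial synthetase mRNAs in each library (points) with group means (bars), hypoxia red and left, normoxia blue and right. The ATF4-listed sum is highest at 6 days (672 to 761 RPKM), while the other 2 sums are lowest there.

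For 13 amino acids both a cytosolic and a mitochondrial gene are among the 36, and the cytosolic mRNA was the higher in all 12 libraries for 11 of them. The exceptions were histidine, with HARS above HARS2 in 10 libraries, and leucine, with LARS above LARS2 in 9. Ratios were taken in each library and averaged over the 2 libraries of a group. The mean ratio for cysteine (CARS to CARS2) was 12.2 in hypoxia and 5.42 in normoxia at 6 days. At 6 hr it was 1.16 in hypoxia and 1.14 in normoxia. For methionine (MARS to MARS2) it was 18.9 in hypoxia and 20.7 in normoxia at 6 days, and 3.10 in hypoxia and 2.31 in normoxia at 6 hr. From 6 hr to 6 days the cytosolic gene rose and the mitochondrial gene fell in 7 of the 13 pairs in hypoxia and in 4 in normoxia. Over all genes 35.1% rose and 29.8% fell in hypoxia, and 30.9% rose and 25.9% fell in normoxia. The cytosolic genes of these pairs were all ATF4-listed, so the count is not independent of that list.

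HARS and HARS2 lie head to head, and the RefSeq starts leave 84 bases between them (59.5% G or C), printed because both genes start at its ends, HARS on the minus and HARS2 on the plus strand.
HARS and HARS2, GRCh38.p14, chr5:140691371-140691454, plus strand: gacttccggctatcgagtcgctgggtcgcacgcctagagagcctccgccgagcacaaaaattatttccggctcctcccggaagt
Hypoxia lay below normoxia in HARS by more than the spread within either pair. HARS had 10.1 and 9.68 RPKM in hypoxia and 13.4 and 13.5 RPKM in normoxia at 6 days (log2 -0.43 ± 0.11, limma adjusted p = 0.0105), and HARS2 had 10.6 and 10.6 RPKM in hypoxia and 10.7 and 11.1 RPKM in normoxia (log2 -0.035 ± 0.11, limma adjusted p = 0.824). With time in normoxia HARS fell by 1.09, and HARS2 by 0.31. The difference between the pair was not tested.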

How the data were processed

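The authors deposited RPKM for each gene symbol, 1 column per library. Per the submitters' processing notes Partek 6.6 and build hg19 were used. The aligner, transcript models, strand use and read denominator were not stated (not given in the sources used here). RPKM was used without further scaling, as log2(RPKM + 0.5), for 11933 genes that reached 1 RPKM in 2 or more of the 12 libraries. limma 3.58.1 (R 4.3.3) fitted 6 group means with an intensity trend (6 residual and 5.08 prior degrees of freedom), with two-sided tests and Benjamini-Hochberg adjustment over all genes tested in a comparison. The procedure was tested on simulated data. Reads were inferred from 707 of 939 precursors of known length, where values of up to 20 reads were within 0.05 of whole numbers for 96.5 to 99.3%. Gene values gave no counts, so no count test was run.

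The members and lists were chosen with earlier results of these data known. Values by library are given for synthetases past the threshold at 48 hr, the 6 lowest and up to 6 highest called at 6 days, the 3 lowest called differences between 6 days and 48 hr, and the highest and lowest mean level in each compartment. Others named with values were chosen after these were seen. Some partner genes are not reported here. All 36 symbols were matched to RefSeq, 18 of them older names. The windows and overlaps are on GRCh38.p14, another build than that of the notes, and served only for sequences and names. Alternatives were pseudocounts of 0.1 and 1, no filter, a filter on all 12 libraries, quantile normalization, centring on a 10% trimmed mean, no trend, each time fitted alone, and each library left out. Python 3.11.15 with matplotlib 3.10.9 drew the figures.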

Additional observations from a re-analysis of the deposited data

Results flagged for a closer look

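The hypoxia effect, as log2 fold change over normoxia, was lower at 6 days than at 48 hr in 4 synthetases by limma's contrast of the effects with Benjamini-Hochberg adjustment. The difference was -1.16 for CARS2 (adjusted p = 0.00311), -0.76 for SARS2 (0.0366), -0.59 for VARS (0.0276) and -0.49 for SARS (0.0469).

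The effect was lower at 6 days than at 6 hr in 11. Among mitochondrial genes the difference was -1.19 for CARS2 (adjusted p = 0.00117), -0.96 for FARS2 (0.00236), -0.90 for SARS2 (0.0111), -0.65 for LARS2 (0.00733), -0.63 for VARS2 (0.0107) and -0.55 for TARS2 (0.0393). Among cytosolic genes it was -1.02 for VARS (adjusted p = 0.00141), -0.79 for QARS (0.00442), -0.74 for IARS (0.021), -0.55 for FARSB (0.0231) and -0.43 for SARS (0.0476). QARS, VARS, CARS2, FARS2, LARS2, SARS2 and VARS2 kept these 6 day against 6 hr calls under all alternatives, while those of FARSB, IARS, SARS and TARS2 each ended on leaving out any of 3 to 6 of the 8 libraries involved, with adjusted p up to 0.156.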

How the results depend on the processing

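No paired analysis was possible because the groups compared share no replicate number. Of 97 calls on single synthetases over the comparisons, 78 held with no filter on low values, 94 after quantile normalization, 95 after trimmed-mean centring, 92 without the intensity trend, and 95 and 97 with pseudocounts of 0.1 and 1, and none changed sign under any alternative. The cause of the changes below was not tested. Shares of all genes called under each alternative are not given here. The counts thus do not tell a change in the synthetases from one over all genes.

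For hypoxia against normoxia at 6 hr (0 called) the count was 1 lower after quantile normalization and 1 lower after trimmed-mean centring, and 0 to 1 with a library left out (1 without library 1). For hypoxia against normoxia at 48 hr (4 called) it was 2 with no filter, 8 (3 higher, 5 lower) with the 4 libraries of that time fitted alone, and 0 to 2 with a library left out. For 6 days (19 called) it was 11 to 15 with a library left out. For the effect at 6 days minus that at 48 hr (4 called) it was 2 with no filter, 13 (1 higher, 12 lower) after quantile normalization, 9 (2 higher, 7 lower) after trimmed-mean centring, and 1 to 2 with a library left out. For 6 days minus 6 hr (11 called) it was 17 (2 higher, 15 lower) after quantile normalization. For hypoxia at 48 hr against hypoxia at 6 hr (3 called) it was 1 with no filter, 5 (3 higher, 2 lower) after quantile normalization, and 0 to 3 with a library left out. For normoxia at 48 hr against normoxia at 6 hr (0 called) it was 0 to 8 with a library left out (8 higher without library 1). Rescaling moved the median of all genes by under 0.1 (log2). With 2 libraries a group, small changes are limited by the spread of single pairs, widest in libraries 1 and 2.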
